A study of Rattus norvegicus with 22 samples.

Results

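Lymphocyte genes of the lung were followed in rats with pulmonary embolism (PE) through 8 genes that mark B cells and T cells: Cd79b and Ms4a1 for B cells, Cd3d, Cd3e and Cd3g for all T cells, and Cd4, Cd8a and Cd8b for T cell subsets. They were taken by gene symbol, with every probeset that carries only that symbol, which gave 11 probesets of 31042 and 8 of the 14217 genes on the array. Cd8a had 3 probesets, Cd3e had 2 and the other members had 1 each, and the probeset of highest mean signal gives the main value. Right lung RNA of 22 male Sprague–Dawley rats was hybridized to the Affymetrix Rat Genome 230 2.0 array, 1 rat per array. All rats received an injection into a jugular vein under anesthesia. Vehicle rats were given 0.15 ml of 0.01% Tween-20 per 100 g body weight, Mild PE rats 1300000 and Severe PE rats 2000000 polystyrene beads (25 micron microspheres) for each 100 g. In the labels, Mild PE rats received 0.1 ml per 100 g, so that the injected volume of Vehicle matched Severe PE but not Mild PE. Lungs were taken 2 h or 18 h later from 3 rats given Vehicle, 4 with Mild PE and 4 with Severe PE at each time, and the age of the rats is not given in the sources used here. The lungs were lavaged before they were excised, so cells free in the airspaces were partly removed. The paper does not say whether blood was flushed from the vessels. The model obstructs lung vessels with inert beads and involves no blood clot.

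The identity of the tissue was checked with the surfactant gene Sftpc, the club cell gene Scgb1a1 and the endothelial gene Pecam1, which averaged 14.52, 14.72 and 11.18 log2 units in Severe PE at 18 h and 14.74, 14.80 and 11.35 in Vehicle at 18 h. Arrays were scaled alike by the authors (trimmed mean 500.2). On all 22 arrays the Gapdh control transcript had less 5′ than 3′ signal. The difference was 0.346 to 0.638 in log2 on the 4 arrays where it was greatest, against 0.176 to 0.322 on the others. These 4, taken by rank and not by a cutoff, are called arrays of low 5′ signal. They came from 18-h Vehicle rat 1, from rat 4 of the 18-h Mild PE group, and at 2 h from rat 3 of Vehicle and rat 1 of Severe PE, and values without them are given beside the main results they touch.

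T cells recognize antigen with a receptor whose own chains cannot signal. The CD3 gamma, delta and epsilon chains, encoded by Cd3g, Cd3d and Cd3e, assemble with it and carry the tyrosine motifs that the kinase Lck phosphorylates and that then recruit the kinase Zap70. CD4 and CD8 are coreceptors that bind MHC class II and class I molecules and bring Lck to the receptor. CD8 is a dimer of the alpha and beta chains encoded by Cd8a and Cd8b. In rats CD4 is also carried by monocytes and macrophages, and the CD8 alpha chain by natural killer cells, so Cd4 and Cd8a are less strictly T cell genes than the CD3 genes. On B cells the signaling part of the antigen receptor contains CD79B, and Ms4a1 encodes the membrane protein CD20, which is present on mature B cells and lost on plasma cells. The lung holds both kinds of lymphocyte in its vessels, in the walls between alveoli and in small aggregates along the airways.

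Levels are normalized log2 signals, so a difference of 1 is a doubling, and the lowest possible value is 4. No member reached that floor on any array. Each probeset has its own brightness, so levels are compared between rats and never between genes. Changed means at least 1.5-fold between group means together with a limma p under 0.05 after Benjamini-Hochberg adjustment over all 31042 probesets. In whole tissue, fewer lymphocytes and less of these RNAs per lymphocyte cannot be told apart.

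**Figure D1:**
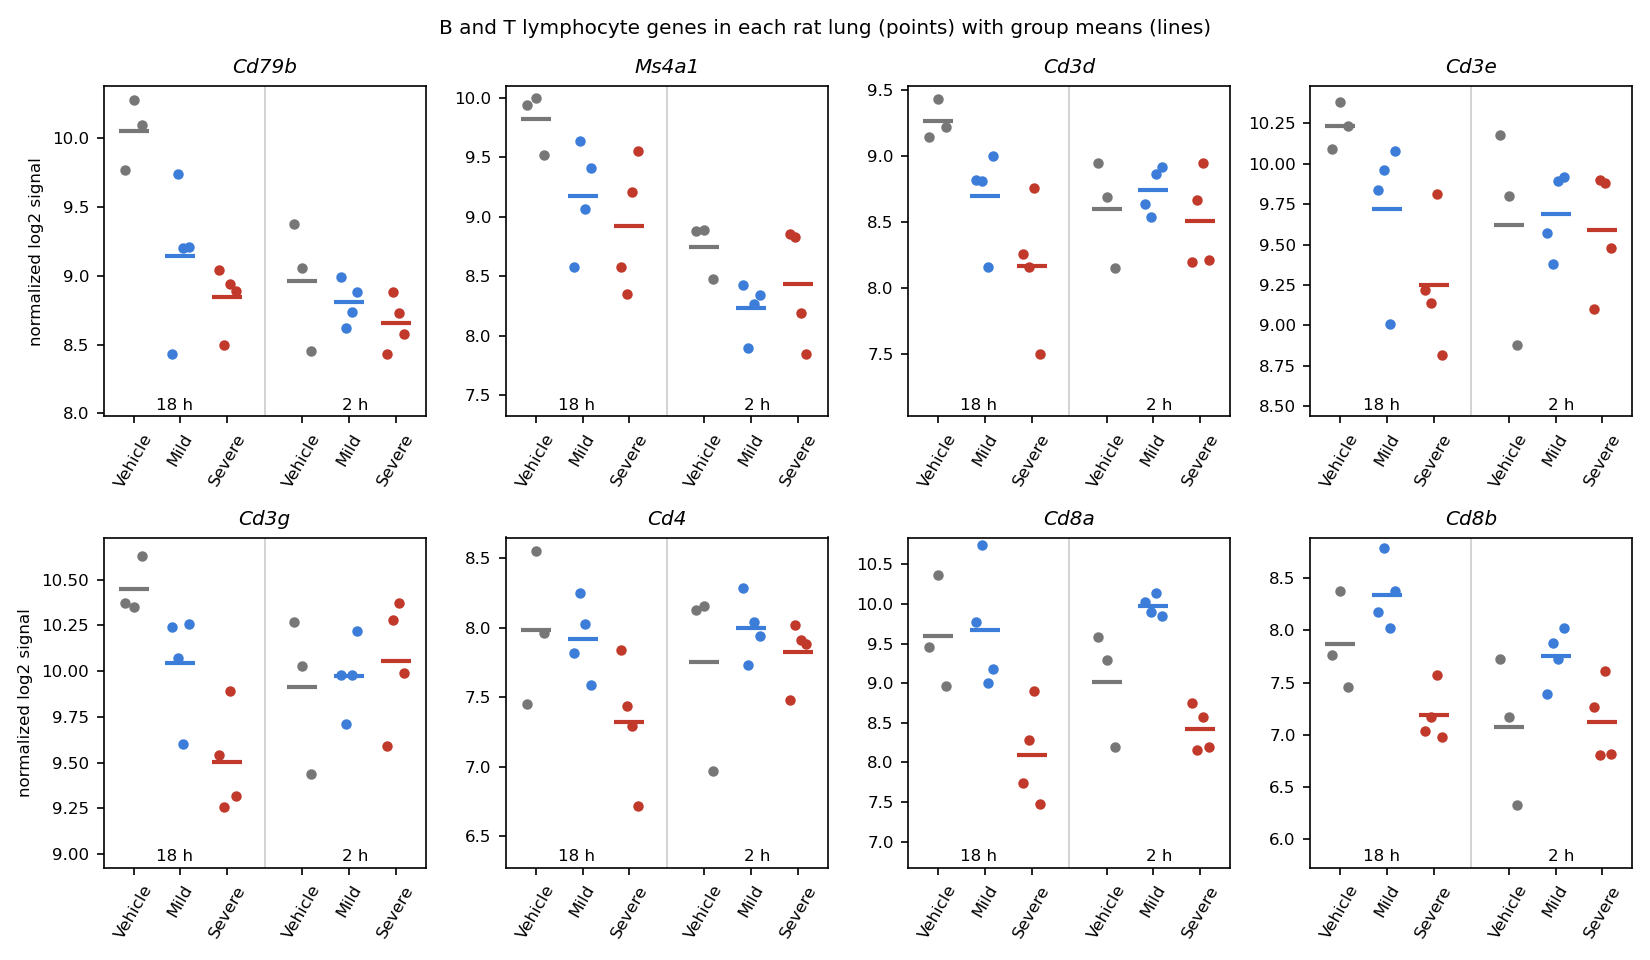
Normalized log2 signal (vertical axis, a separate scale for each gene) of the 8 lymphocyte genes in each of the 22 rats (points) with group means (lines), by dose at 18 h and at 2 h. For Cd79b and Cd3g all 4 Severe PE rats lie below the 3 Vehicle rats at 18 h (means 8.84 and 9.5 in Severe PE, 10.05 and 10.45 in Vehicle), while the same groups overlap at 2 h.

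At 18 h, 2 of the 8 lymphocyte genes were lower in Severe PE lungs than in Vehicle lungs, as were 3.91% of all probesets. Cd79b and Cd3g fell, with log2 differences of −1.21 and −0.95, and the other 6 members had differences of −0.67 to −1.50 that did not pass the test. With 1 rat left out, the Cd79b call held in 5 of 7 fits and the Cd3g call in 1 of 7. In Mild PE lungs at 18 h the B cell and CD3 genes were intermediate, and Cd4, Cd8a and Cd8b differed from Vehicle by −0.07 to 0.47, with no member changed. At 2 h no member had changed against Vehicle, and Cd8a was the 1 member that differed between the doses, lower in Severe PE than in Mild PE lungs. Of all probesets 0.19% were lower between the doses, and the Cd8a call held in 4 of 8 fits with 1 rat left out. The levels in 18-h Vehicle lungs were the highest of the 6 groups for the B cell and CD3 genes.

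Cd79b was measured at 9.04, 8.50, 8.94 and 8.89 in the 18-h Severe PE rats, against 9.77, 10.28 and 10.10 in the 18-h Vehicle rats. Every Severe PE rat lay below every Vehicle rat, by at least the distance between 9.04 and 9.77. The group means were 8.84 ± 0.24 (SD, n = 4) in Severe PE and 10.05 ± 0.26 (SD, n = 3) in Vehicle, a 2.31-fold lower level in Severe PE (SE of the log2 difference 0.18, limma adjusted p = 0.0184). Without 18-h Vehicle rat 2 or rat 3 the difference was −1.09 or −1.18 and its adjusted p 0.0514 or 0.0597, so the call was lost without either of them, and it held without any other rat of the 2 groups.

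The second B cell gene, Ms4a1, was measured at 8.58, 8.35, 9.21 and 9.55 in 18-h Severe PE rats and at 9.94, 10.00 and 9.52 in 18-h Vehicle rats. The groups overlapped through Severe PE rat 4. The log2 difference was −0.90 (SE 0.33, adjusted p = 0.158), so a change of Ms4a1 was not shown.

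The 3 CD3 genes had almost the same profile over the rats. Cd3g was measured at 9.54, 9.26, 9.89 and 9.32 in 18-h Severe PE rats, against 10.37, 10.35 and 10.63 in 18-h Vehicle rats. The groups did not overlap, with means of 9.5 ± 0.29 (SD, n = 4) in Severe PE and 10.45 ± 0.16 (SD, n = 3) in Vehicle. The level was 1.93-fold lower in Severe PE (SE of the log2 difference 0.18, adjusted p = 0.0307). Without 18-h Severe PE rat 3, the highest of its group, the difference was −1.08 and the adjusted p 0.0296. Leaving out any other rat lost the call: the difference was −0.99, −1.0 and −0.86 without Vehicle rats 1, 2 and 3, and −0.96, −0.87 and −0.89 without Severe PE rats 1, 2 and 4, with adjusted p values of 0.0683 to 0.0891.

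Cd3d was measured at 8.26, 8.16, 8.76 and 7.50 in 18-h Severe PE rats and at 9.14, 9.43 and 9.22 in 18-h Vehicle rats. Its groups did not overlap either, but Severe PE rats spread over more than a log2 unit. The difference was −1.09 (SE 0.29, adjusted p = 0.0775). Cd3e was measured at 9.22, 9.14, 9.81 and 8.82 in 18-h Severe PE rats and at 10.09, 10.38 and 10.23 in 18-h Vehicle rats. Here too the ranges stood apart, with a difference of −0.99 (SE 0.24, adjusted p = 0.0596). Without 18-h Severe PE rat 3 Cd3e passed the test (−1.18, adjusted p = 0.0324). The second, dimmer Cd3e probeset had a difference of −0.60 (SE 0.23, adjusted p = 0.17), and its ranges overlapped.

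Cd3g, Cd3d and Cd3e are neighbors on rat chromosome 8 of the RefSeq assembly GRCr8, at 54177572–54184087, 54184573–54190112 and 54200617–54211770. The gap is 485 bases between Cd3g and Cd3d and 10504 bases between Cd3d and Cd3e. Cd8b (104870911–104886838) and Cd8a (104924116–104928353) lie 37277 bases apart on chromosome 4, which also holds Cd4 (159355147–159381636). Cd79b is on chromosome 10 (91739134–91742312) and Ms4a1 on chromosome 1 (217331274–217351934). RefSeq promoter sequence was matched for 4 of the 8 members, and for 2 of them, Cd3e and Cd8a, the 250 bases before the start lie outside the annotated gene. These are shown because Cd3e stands for the CD3 genes, whose profiles were alike, and Cd8a had the profile farthest from them. Capitals mark the motif AGGAAG, a form of the sites of ETS factors, on either strand (CTTCCT on the strand printed).
Cd3e, chr8:54211771-54212020, minus strand: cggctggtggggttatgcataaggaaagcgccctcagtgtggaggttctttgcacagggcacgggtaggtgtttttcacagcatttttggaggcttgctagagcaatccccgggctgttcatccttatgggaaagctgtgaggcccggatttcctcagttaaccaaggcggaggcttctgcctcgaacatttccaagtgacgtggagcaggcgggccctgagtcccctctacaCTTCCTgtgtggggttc
Cd8a, chr4:104923866-104924115, plus strand: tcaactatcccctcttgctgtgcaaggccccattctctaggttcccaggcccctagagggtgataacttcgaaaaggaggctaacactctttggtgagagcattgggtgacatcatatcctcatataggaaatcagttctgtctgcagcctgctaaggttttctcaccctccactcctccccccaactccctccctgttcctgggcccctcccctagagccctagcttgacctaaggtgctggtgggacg
The window of Cd3e holds 1 match, and that of Cd8a none. Of 33469 rat promoter windows of this length, 29.5% hold it. Matches to TGTGGT (RUNX factors, 14.5% of windows), AGATAA (bound by the GATA family, 10.3%), CAGCTG (E-box, 12%) and ATGCAAAT (the octamer of B cell genes, 1.56%), searched on both strands, were in neither. None of the 5 motifs contains another, and a match is a description of the letters and not of binding. Only these exact letters were searched, so other forms of the sites of these factors were not counted.

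Cd8a was measured at 7.74, 8.29, 8.90 and 7.47 in 18-h Severe PE rats, against 9.46, 10.37 and 8.97 in 18-h Vehicle rats. The ranges did not overlap, by the narrow gap between Severe PE rat 3 and Vehicle rat 3. The difference of −1.50 (SE 0.47, adjusted p = 0.112) had the greatest size of the 8 members, and also the greatest SE. The other 2 Cd8a probesets had differences of −0.73 (SE 0.28, adjusted p = 0.18) and −0.45 (SE 0.23, adjusted p = 0.289), both with overlapping ranges.

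Cd8b was measured at 7.04, 7.17, 7.57 and 6.98 in 18-h Severe PE rats and at 7.77, 8.38 and 7.46 in 18-h Vehicle rats. The groups overlapped, and the difference was −0.68 (SE 0.26, adjusted p = 0.169). Cd4 was measured at 7.84, 7.44, 7.29 and 6.72 in 18-h Severe PE rats and at 7.45, 8.55 and 7.96 in 18-h Vehicle rats. It had the difference nearest to 0, −0.67 (SE 0.35, adjusted p = 0.317), and ranges that overlapped. The Cd4 difference was −0.93 without 18-h Vehicle rat 1 and −0.38 without rat 2.

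In this comparison 2 of 8 members had changed, both lower. Of all probesets 7.13% had changed and 3.91% were lower. All 8 member differences were below 0, as were 47.4% of all probesets, and the median was −0.97, against 0 over all probesets. At an unadjusted p under 0.05 there were 7 of 8 members and 25.3% of all probesets. The ranges did not overlap, with Severe PE below Vehicle, for 5 of 8 members and 12% of all probesets. The number of members changed was 5 when probesets with a mean under 6 were left out or when all 22 arrays were fitted together, and the number over all probesets was then 2963 or 3838, against 2212. With 1 rat left out it was 980 to 1566 over all probesets. Only 18-h Vehicle rat 1 of this comparison had an array of low 5′ signal. Without that rat 1 member had changed, Cd79b (−1.35, adjusted p = 0.0314), and 1311 of all probesets.

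**Figure D2:**
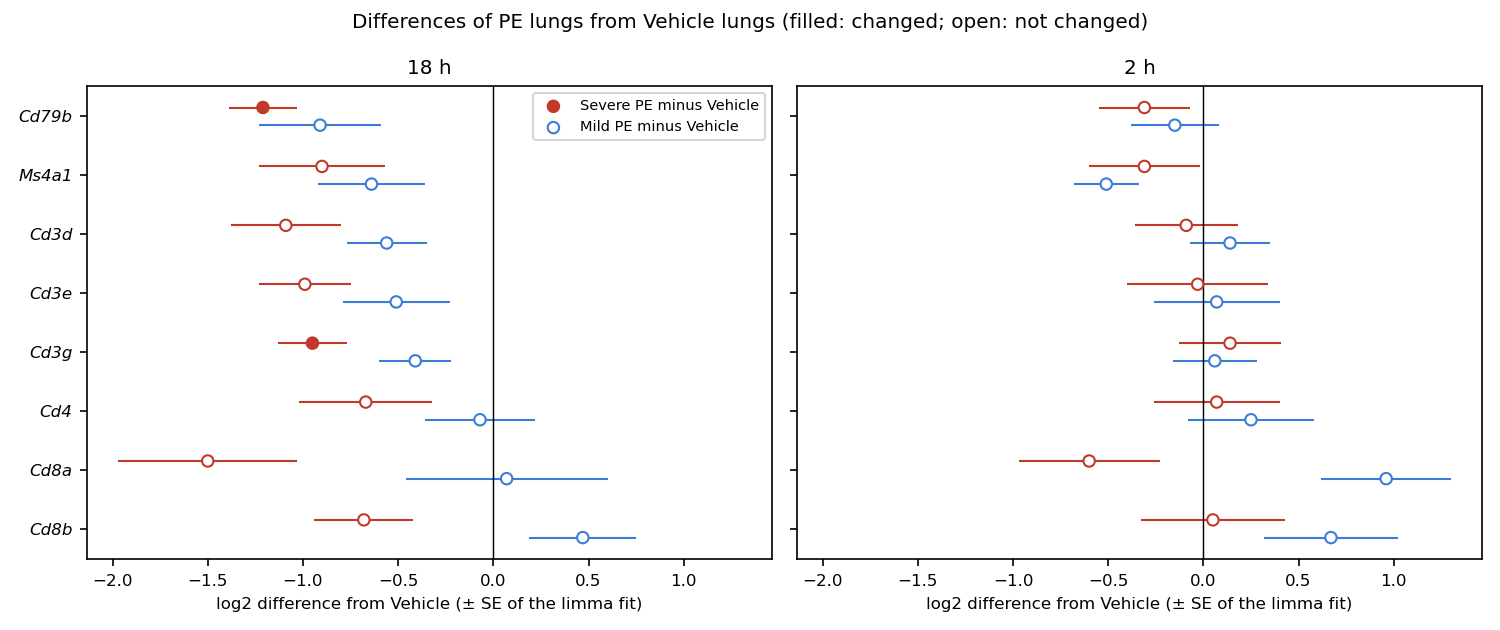
Log2 difference from Vehicle (horizontal axis, ± SE of the limma fit) of each lymphocyte gene in Severe PE (red) and Mild PE (blue) lungs, at 18 h (left) and 2 h (right). Filled points had changed, open points had not; at 18 h the 8 Severe PE points lie between −1.50 and −0.67 and the Mild PE points between −0.91 and 0.47.

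Sums of markers of other cells also differed between these groups, where 7.13% of all probesets had changed, higher or lower. The summed signal of 9 measured neutrophil genes was 46600 to 69100 in 18-h Severe PE lungs and 21800 to 28100 in 18-h Vehicle lungs. Without Lcn2 the sum of the other 8 was 20100 to 42200 in Severe PE and 13600 to 26000 in Vehicle, so the ranges then overlapped. Of the 9 genes, Lcn2, an iron-binding protein of neutrophil granules and injured epithelium, rose (2.35, adjusted p = 0.0444), and the defining markers S100a8, S100a9 and Cxcr2 had differences of 0.88, 0.53 and 1.36 that did not pass. The sum of 11 monocyte and macrophage genes was 41100 to 47300 in Severe PE and 36800 to 39700 in Vehicle, with 2 members higher: Cd163, a hemoglobin scavenger receptor (2.07, adjusted p = 0.044), and Cd14, a coreceptor for endotoxin (1.18, adjusted p = 0.0226). The defining markers Cd68 and Csf1r differed by 0.58 and −0.33, and Mrc1 and Itgam by 1.0 and 2.71, without passing. Differences were below 0 for 3 of these 11 genes, among them Lyz2, the brightest (−0.15). The sum of 6 red cell genes was 23200 to 41500 in Severe PE and 44900 to 51200 in Vehicle, with none changed and a median of −1.16. In that list Ahsp differed by −2.03, Alas2 by −1.43, Hba-a3 by −1.31, Slc4a1 by −1.0 and Hbb by −0.08. No defining marker of these 3 lists was at the floor on any array. The part of these other cells, and of blood in the vessels, in the lymphocyte differences was not tested.

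Genes that work with the members were read from lists of T cell and B cell genes. Of 24 measured T cell receptor and signaling genes, 3 had changed in 18-h Severe PE against Vehicle, all lower, where 3.91% of all probesets were lower, and the median was −0.48, against 0 over all genes. Lck averaged 10.81 ± 0.34 in Severe PE and 11.85 ± 0.22 in Vehicle (adjusted p = 0.039). Zap70 averaged 8.85 ± 0.24 in Severe PE and 9.93 ± 0.29 in Vehicle (adjusted p = 0.0273). Lef1, a transcription factor of naive T cells, averaged 8.61 ± 0.18 in Severe PE and 9.26 ± 0.06 in Vehicle (adjusted p = 0.0247). Rhoh, a GTPase that T cell receptor signaling requires, passed the p threshold at less than 1.5-fold (−0.51, adjusted p = 0.021). The surface markers Cd2 and Cd5 had differences of −0.61 and −0.93 that did not pass. In all, 17 of the 24 were below 0, as were 47.4% of all probesets.

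Of 12 measured B cell genes 2 had changed, both lower, and 11 had differences below 0, with a median of −0.89. Of all probesets 3.91% were lower and 47.4% had differences below 0. Bank1, an adaptor of the B cell receptor, averaged 7.77 ± 0.29 in 18-h Severe PE and 8.90 ± 0.08 in 18-h Vehicle (adjusted p = 0.0183). Fcrla, an Fc receptor-like protein inside B cells, averaged 9.64 ± 0.37 in Severe PE and 10.82 ± 0.29 in Vehicle (adjusted p = 0.0388). The kinase gene Blk (−1.13, adjusted p = 0.0604) and the tetraspanin gene Cd37 (−0.63, adjusted p = 0.0762) did not pass.

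The remaining lists held no changed gene in 18-h Severe PE against Vehicle, where 7.13% of all probesets had changed. Differences below 0 were found for 47.4% of all probesets and for all 15 measured natural killer and cytotoxic genes. These 15 genes had a median of −0.54, and none passed the test. They included the killer receptor gene Klrd1 (−1.0, adjusted p = 0.116), the perforin gene Prf1 (−0.75), Ncr1 (−0.22), Ctsw (−1.33), Gzmm (−1.22) and Il2rb (−0.76). None of 5 plasma cell genes had changed, with a median of −0.32. Jchain, the joining chain of secreted antibodies, differed by −0.87, Mzb1 by −1.12, Tnfrsf17 by −0.32, Prdm1 by −0.27 and Xbp1 by 0.07. Of 12 genes of lymphocyte homing none had changed: Klf2, a factor that keeps naive T cells in circulation and is also an endothelial gene, differed by −0.52 (adjusted p = 0.0325, under 1.5-fold), Cxcr3 by 0.59, Ccl21 by −0.70 and S1pr1 by 0.15. Of the 5 lung tissue genes none had changed, and Ager, an alveolar type I cell gene, differed by −0.52 (adjusted p = 0.00923, under 1.5-fold). The summed signal of these 5 was also lower, at 84900 to 93200 in Severe PE and 95600 to 105000 in Vehicle. What this means for the lymphocyte differences was not tested.

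Mild PE at 18 h gave a different order of the members. Cd79b was measured at 8.43, 9.74, 9.20 and 9.21 in 18-h Mild PE rats, all below the 3 Vehicle rats (lowest 9.77), with a difference of −0.91 (SE 0.32, adjusted p = 0.212). Ms4a1 was measured at 8.58, 9.64, 9.07 and 9.41, which overlapped Vehicle (−0.64, adjusted p = 0.296). For both, rat 1 was the lowest of the Mild PE rats and rat 2 the highest.

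The CD3 genes in 18-h Mild PE rats were each below every Vehicle rat. Cd3d was measured at 8.82, 8.81, 8.16 and 9.0, Cd3e at 9.84, 9.96, 9.01 and 10.08, and Cd3g at 10.24, 10.07, 9.60 and 10.26. Rat 3 was the lowest for all 3 genes. Their differences from Vehicle were −0.56, −0.51 and −0.41 (adjusted p = 0.243, 0.396 and 0.31), and for Cd3e Mild PE rat 4 and the lowest Vehicle rat were at 10.08 and 10.09. Cd4 differed by −0.07 (SE 0.29), Cd8a by 0.07 (SE 0.53) and Cd8b by 0.47 (SE 0.28), all with overlapping ranges.

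No member had changed in this comparison, where 1.03% of all probesets had. At an unadjusted p under 0.05 there were 2 of 8 members, among 18.7% of all probesets. Ranges did not overlap, with Mild PE below Vehicle, for 4 of 8 members and for 8.81% of all probesets. In the fit on all 22 arrays Cd79b passed (−0.91, adjusted p = 0.0338), as did 1589 of all probesets, against 321 in the fit on the 2 groups. Of the 12 B cell genes 2 were lower in 18-h Mild PE: Bank1 (−0.93, adjusted p = 0.0293) and Blk (−0.72, adjusted p = 0.0436), and none of the 24 T cell genes had changed.

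Between the doses at 18 h, all 8 members had lower means in Severe PE than in Mild PE, as did 51.8% of all probesets. Cd8b was measured at 7.04, 7.17, 7.57 and 6.98 in Severe PE rats, against 8.18, 8.79, 8.02 and 8.38 in Mild PE rats. The groups stood apart, with a difference of −1.15 (SE 0.20, adjusted p = 0.11). Cd8a was measured at 7.74, 8.29, 8.90 and 7.47 in Severe PE rats and at 9.77, 10.74, 9.0 and 9.18 in Mild PE rats. These also did not overlap (−1.57, SE 0.47, adjusted p = 0.221). The other members had overlapping ranges and differences of −0.25 (Ms4a1) to −0.60 (Cd4).

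In this comparison limma called no member and 0% of all probesets. At an unadjusted p under 0.05 there were 3 of 8 members and 14% of all probesets, and ranges without overlap, Severe PE below, were found for 2 of 8 members and 4.19% of all probesets. With 1 fit on all 22 arrays Cd8b passed (adjusted p = 0.0476), as did 326 of all probesets.

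At 2 h the doses differed in Cd8a. It was measured at 8.75, 8.16, 8.57 and 8.19 in 2-h Severe PE rats, against 10.02, 9.90, 10.14 and 9.85 in 2-h Mild PE rats. The groups were more than a log2 unit apart, with means of 8.42 ± 0.29 in Severe PE and 9.98 ± 0.13 in Mild PE (SD, n = 4 each), and the level was 2.95-fold lower in Severe PE (log2 difference −1.56, SE 0.15, adjusted p = 0.0148). The 2-h Vehicle rats, at 9.58, 9.29 and 8.19, lay between the doses and overlapped the Severe PE range.

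The other Cd8a probesets had the same direction between the doses at 2 h. Probeset 1395116_at was measured at 6.68, 6.42, 6.32 and 6.27 in Severe PE rats and at 7.12, 7.22, 7.35 and 7.14 in Mild PE rats, and it had changed (−0.79, SE 0.10, adjusted p = 0.0371). Probeset 1369877_at was measured at 7.82, 7.92, 8.14 and 7.13 in Severe PE rats and at 8.67, 8.69, 8.75 and 8.95 in Mild PE rats, and it had not (−1.01, SE 0.21, adjusted p = 0.117). In neither did the ranges overlap.

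**Figure D3:**
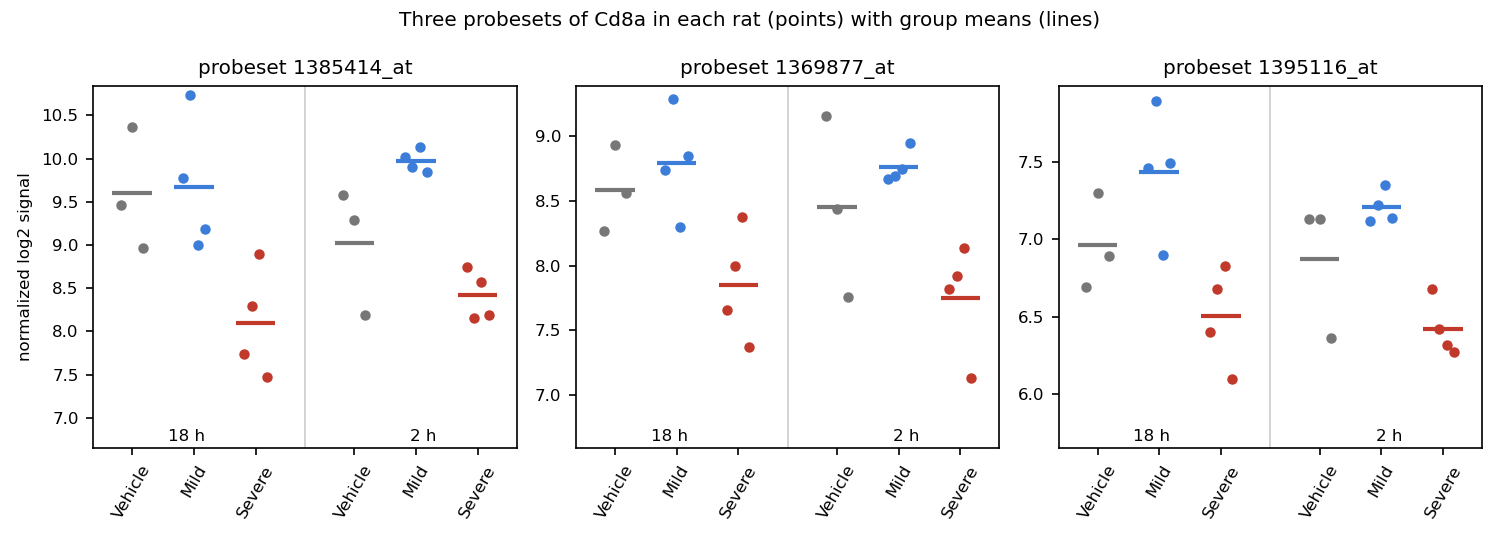
Normalized log2 signal (vertical axis, a separate scale for each probeset) of the 3 Cd8a probesets in each rat (points) with group means (lines), by dose at 18 h and at 2 h. In each probeset the 4 Severe PE rats at 2 h lie below the 4 Mild PE rats, with differences of −1.56, −1.01 and −0.79 from left to right.

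Cd8b, the partner of Cd8a, had a smaller difference between the doses at 2 h (−0.63, SE 0.22, adjusted p = 0.31) and overlapping ranges: 7.27, 6.81, 7.61 and 6.82 in Severe PE rats and 7.39, 7.88, 7.73 and 8.02 in Mild PE rats. So 1 of 8 members, the same that had ranges without overlap (4.05% of all probesets, Severe PE below), had changed between the doses at 2 h, where 0.438% of all probesets had changed and 0.19% were lower. The Cd8a call was lost without 2-h Mild PE rat 1, 2, 3 or 4 (differences of −1.55, −1.59, −1.51 and −1.60, adjusted p = 0.0543 to 0.0621), and in the fit on all 22 arrays (adjusted p = 0.0853). Without rat 1 of 2-h Severe PE, whose array had low 5′ signal, the difference was −1.67 (adjusted p = 0.0124). The differences of the other 6 members lay between −0.23 and 0.20. Of the 12 homing genes 1 was higher, the T cell zone chemokine gene Ccl19 (1.05, adjusted p = 0.0471), which is named after its value was seen.

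Against Vehicle at 2 h no member had changed in Severe PE (0.0226% of all probesets) or in Mild PE (0.332%). In 2-h Severe PE the differences ran from −0.60 (Cd8a, SE 0.37) to 0.14 (Cd3g, SE 0.27), with every range overlapping that of Vehicle. That of Cd8a was −1.02 without 2-h Vehicle rat 3 and −0.32 without rat 1. No member was under an unadjusted p of 0.05 there, where 7.67% of all probesets were. In 2-h Mild PE Cd8a stood above all Vehicle rats (0.96, SE 0.34, adjusted p = 0.325), and Ms4a1 stood below them. The Cd8a difference was 0.55 without 2-h Vehicle rat 3 and 1.24 without rat 1.

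Ms4a1 was measured at 8.43, 7.90, 8.27 and 8.34 in 2-h Mild PE rats and at 8.88, 8.89 and 8.48 in 2-h Vehicle rats (−0.51, SE 0.17, adjusted p = 0.296). Such ranges without overlap were found above Vehicle in 6.58% and below it in 5.79% of all probesets. The CD3 genes and Cd4 differed from Vehicle by 0.06 to 0.25 in 2-h Mild PE and by −0.09 to 0.14 in 2-h Severe PE. At an unadjusted p under 0.05 there were 2 members in Mild PE, among 13.2% of all probesets.

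In the 2-h Vehicle group 1 rat stood apart. Rat 3, whose array had low 5′ signal, had the lowest level of its group for 8 of 8 members, for example 8.15 for Cd3d against 8.95 and 8.69, and 6.33 for Cd8b against 7.73 and 7.17. Its median distance from the group means was −0.62. Without it, the Mild PE differences at 2 h turned below 0 for Cd3d (−0.08), Cd3e (−0.30), Cd3g (−0.18) and Cd4 (−0.14), and the Severe PE differences for Cd3g (−0.09), Cd4 (−0.33) and Cd8b (−0.33). Of the other arrays with low 5′ signal, 2-h Severe PE rat 1 was the lowest of its group for 5 members, 18-h Vehicle rat 1 for 4 and 18-h Mild PE rat 4 for 1. The part of RNA quality in these levels was not tested.

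**Figure D4:**
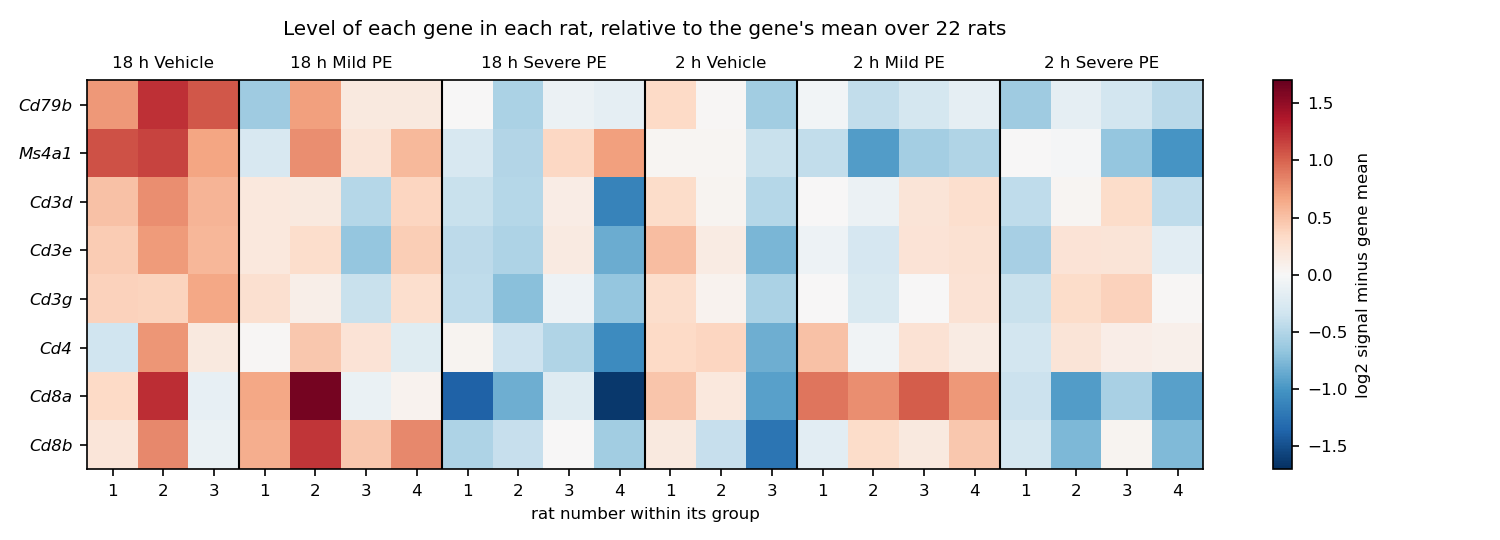
Heat map of the 8 lymphocyte genes (rows) in the 22 rats (columns, by group), as log2 signal minus the mean of the gene over all rats (color scale, red above and blue below the mean). The 3 CD3 rows run alike, the 18-h Vehicle rats are red in the B cell and CD3 rows, and 2-h Vehicle rat 3 is lowest of its group in 8 of 8 rows.

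Rats also differed from one another within the other groups in ways the members shared. In 18-h Severe PE, rat 3 was the highest of its group for 5 members and rat 4 the lowest for 5. In 18-h Mild PE, rat 2 was above the group mean for 8 of 8 members, and rat 3 was the lowest for 5. Among the 18-h Vehicle rats, rat 2 was the highest for 7 members.

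Vehicle lungs of the 2 times were also compared, and no member passed the test. Cd79b was measured at 9.77, 10.28 and 10.10 in 18-h Vehicle rats, against 9.38, 9.06 and 8.45 in 2-h Vehicle rats. The ranges stood apart, and the difference was 1.09 (SE 0.29, adjusted p = 0.242). Ms4a1 was measured at 9.94, 10.00 and 9.52 at 18 h and at 8.88, 8.89 and 8.48 at 2 h, again without overlap (1.07, SE 0.19, adjusted p = 0.194). All 8 members had differences above 0, from 0.23 (Cd4) to 1.09, with a median of 0.64, while 49.9% of all probesets were below 0. Without 2-h Vehicle rat 3 the differences were 0.83 for Cd79b, 0.94 for Ms4a1, 0.25 for Cd3e (0.61 with it), 0.16 for Cd8a (0.58 with it) and −0.16 for Cd4.

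Between the Vehicle groups 0.0161% of all probesets had changed. At an unadjusted p under 0.05 there were 3 of 8 members and 15.5% of all probesets. Ranges without overlap, 18 h above 2 h, were found for 4 of 8 members and 12.4% of all probesets. Under median centring the median of all probesets in this comparison was 0.17 and not 0. With 1 fit on all 22 arrays Cd79b passed (adjusted p = 0.0357), as did 833 of all probesets, against 5 in the fit on the 2 groups. The 18-h Vehicle rats are also the ones against which the 18-h differences of both doses were taken, so those 2 sets of differences share their controls.

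The order of the 6 group means differed among the members. The highest mean was that of 18-h Vehicle for Cd79b, Ms4a1, Cd3d, Cd3e and Cd3g, of 2-h Mild PE for Cd4 and Cd8a, and of 18-h Mild PE for Cd8b. The lowest mean was that of 18-h Severe PE for Cd3d, Cd3e, Cd3g, Cd4 and Cd8a, of 2-h Severe PE for Cd79b, of 2-h Mild PE for Ms4a1 and of 2-h Vehicle for Cd8b. Of the 5 pairs of neighboring groups in each order, ranges of rats did not overlap in 1 pair for Cd79b and Cd3e (18-h Mild PE below 18-h Vehicle), in 1 pair for Cd3d (2-h Mild PE below 18-h Vehicle) and in no pair for the other members. The range of group means was 0.68 for Cd4, 0.95 to 1.09 for the CD3 genes, 1.26 for Cd8b, 1.39 for Cd79b, 1.58 for Ms4a1 and 1.88 for Cd8a.

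In the model with time and dose over all 22 rats, time passed for the 2 B cell genes, Ms4a1 (adjusted p = 0.00197) and Cd79b (adjusted p = 0.0105), and for no T cell gene. That is 2 of 8 members, where 17.6% of all probesets passed. Cd8b, a T cell gene, narrowly missed the threshold for time (adjusted p = 0.0503). Dose passed for 3 of 8 members, Cd8a (adjusted p = 0.00416), Cd8b (adjusted p = 0.0176) and Cd79b (adjusted p = 0.0236), where 9.93% of all probesets did. The 2 other Cd8a probesets also passed for dose (adjusted p = 0.0116 and 0.0039). No member passed for the interaction (3.62% of all probesets), with 3 of 8 at an unadjusted p under 0.05 (18.1%). Over the 3 groups at 18 h, Cd8b (adjusted p = 0.0367) and Cd3g (adjusted p = 0.0379) passed, 2 of 8 where 7.64% of all probesets did. Over the 3 groups at 2 h no member passed (0.76%), with 1 at an unadjusted p under 0.05 (13%).

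Whether the Severe PE difference from Vehicle was itself different at the 2 times was tested in the same fit. It was lower at 18 h than at 2 h for Cd3g, by −1.09 (SE 0.32, adjusted p = 0.0477), from differences of −0.95 at 18 h and 0.14 at 2 h. The contrast passed for 1 of 8 members and for 5.73% of all probesets. The values of the other members were all below 0, from −0.58 for Ms4a1 to −1.01 for Cd3d, as were 48.8% of all probesets. With 1 rat left out, 1 member passed without 2-h Vehicle rat 1, rat 1 of 2-h Severe PE, 18-h Mild PE rat 3 or rat 3 of 18-h Severe PE, and 0 passed without any of the other 18 rats. None passed with a floor of 64 or without the 4 arrays of low 5′ signal. For Mild PE no member passed (0.744% of all probesets), with 1 of 8 at an unadjusted p under 0.05 (13.7%) and all 8 values below 0, from −0.13 (Ms4a1) to −0.89 (Cd8a), as were 48.8% of all probesets.

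Likeness of profiles was measured as the root mean square difference between 2 genes over the 22 arrays, each centred on its own mean. Among the members Cd3d and Cd3e were closest (0.14 log2 units), followed by Cd3e and Cd3g (0.18) and Cd3d and Cd3g (0.20). Cd79b and Ms4a1 differed by 0.38, and Cd8a and Cd8b by 0.54. Ms4a1 and Cd8a were the farthest apart (0.97). The arrays are shared by all genes, so these values are a description.

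Among 11081 genes with a mean of at least 6, Lck and Lat, an adaptor below the T cell receptor, were the nearest to Cd3e after Cd3d (0.17 each). Septin1 was near Cd3d (0.18) and Ccnjl near Cd3g (0.20). Nearest to Cd79b were Ighvl1 (0.25), Fcmr, which encodes the receptor for IgM (0.27), and Reep6 (0.29). Ighvl1 was also the nearest to Ms4a1 (0.28), before Cd79b itself and B4galnt1 (0.40). Cd4 had Adgre5 (0.27), Dusp26 (0.27) and Limd2 (0.28) as nearest genes. After Cd8b, Cd8a was nearest to the granule protease gene Gzmm (0.56) and to Nkg7 (0.59), a granule membrane protein of cytotoxic cells, and Cd8b to Zbp1 (0.36), Myo1g (0.38) and Blvra (0.39).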

How the data were processed

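Lung RNA of 22 rats was hybridized to Affymetrix Rat Genome 230 2.0 arrays. The methods name GC-RMA, but the deposited values are linear intensities that the authors scaled per array (2% trimmed mean 500.2), with the summary method not given in the sources used here. After 57 control probesets were left out, 31042 remained, of which 20826 carried 1 gene symbol, 436 several and 9780 none. Signals under 16 (13.6% to 17.3% per array) were set to 16, taken to log2 and quantile normalized. Tests used R 4.3.3 and limma 3.58.1 on the 2 groups compared, or on all 22 arrays for the model of time, dose and interaction and for the effect at 18 h minus that at 2 h. The 1-way models required at least 1.5-fold from Vehicle. Scripts were tested on simulated data. Precision is limited by having 3 or 4 arrays a group.

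Members and lists were chosen with earlier results of these data known. The lists cover T cell, B cell, plasma cell, natural killer, monocyte and macrophage, neutrophil, red cell, homing and lung tissue genes. Besides the members, the genes named are up to 4 per list with the smallest adjusted p in 18-h Severe PE against Vehicle, the defining markers, and the 3 nearest profiles of each member. Sums of a list are of normalized signals on the linear scale, so bright probesets weigh most in them. Gene symbols are those of the platform annotation, and positions are from RefSeq (GRCr8). Alternatives were median centring, no further normalization, a floor of 64, probesets with a mean under 6 left out, a variance trend, the replicate block, the methods' t-test, 1 joint fit, averaging the probesets of a gene, the 4 low 5′ arrays left out, and each rat left out.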

Additional observations from a re-analysis of the deposited data

Results flagged for a closer look

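The Severe PE difference of Cd3g from Vehicle differed between the times by a test of that difference: −1.09 (SE 0.32, limma adjusted p = 0.0477), with −0.95 at 18 h and 0.14 at 2 h. Among the 4 Severe PE rats of each time, 4 of 4 were below every Vehicle rat at 18 h, while the ranges overlapped at 2 h. The call was lost without any 1 of 18 of the 22 rats. Of 32 groups of 4 rats (8 members in 4 groups) checked for a rat far from the others, 0 had one. The Vehicle groups of 3 rats were not checked, and with 4 rats a group the check cannot exclude such a rat.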

How the results depend on the processing

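Of 560 member differences under alternatives other than leaving out a rat, 532 kept their direction and their side of the threshold, 6 lost the call, 10 gained one and 12 turned, none of the turned ones called. With 1 rat left out, 358 of 400 kept both, 12 lost the call, 1 gained one and 29 turned. Most of these differences were not called at the start, so the totals say little about how firm the calls are. Only Cd79b and Cd3g in 18-h Severe PE against Vehicle, and Cd8a between the doses at 2 h, had a call to lose. Their calls held in 9, 7 and 8 of the 10 other alternatives, and in 5 of 7, 1 of 7 and 4 of 8 fits with 1 rat left out. With the replicate block, the number of members changed was 0 for 18-h Severe PE against Vehicle, for Severe PE against Mild PE at 2 h, for the 3 groups at 18 h and for the Severe PE effect at 18 h minus 2 h, and the differences turned for Cd3d (0.01) and Cd3e (0.01) in 2-h Severe PE, for Cd3e (0.00) and Cd3g (−0.02) in 2-h Mild PE and for Cd4 (0.05) in 18-h Mild PE, against Vehicle. Over all probesets the block left 0 changed for 18-h Severe PE against Vehicle (2212 without it), 1 between the doses at 2 h (136), 672 for the 3 groups at 18 h (2372) and 1458 for the Severe PE effect at 18 h minus 2 h (1778). The adjusted p with the block was 0.164 for Cd79b and 0.114 for Cd3g in 18-h Severe PE against Vehicle and 0.154 for Cd8a between the doses at 2 h. The labels give replicate numbers but state no pairing. Correlations of same-numbered residuals were −0.273 to 0.123 (median −0.0136), which with 3 or 4 rats a group cannot decide whether the numbers pair the rats. With the block no member difference between 2 groups was called. In 1 fit on all 22 arrays the number was 5 for 18-h Severe PE, 1 for 18-h Mild PE and 1 for Vehicle 18 h against 2 h, 1 for Severe PE against Mild PE at 18 h and 0 at 2 h. Over all probesets that fit changed 3838, 1589, 833, 326 and 179 in these comparisons, against 2212, 321, 5, 0 and 136. With dim probesets left out, which leaves fewer probesets to adjust over, it was 5 for 18-h Severe PE against Vehicle, 5 for the 3 groups at 18 h and 1 for those at 2 h (over all probesets 2963, 2989 and 325). It was 1 for 18-h Severe PE under the methods' t-test with Benjamini-Hochberg adjustment, and 0 for the Severe PE effect at 18 h minus 2 h with a floor of 64. A fit on some of the groups leaves out only the low 5′ arrays of those groups. Without the 4 low 5′ arrays the number of members changed was 1 for 18-h Severe PE against Vehicle and 0 for the 3 groups at 18 h. It was 1 for the 3 groups at 2 h and 0 for the Severe PE effect at 18 h minus 2 h. In that setting differences at 2 h turned in Mild PE against Vehicle for Cd3d (−0.08), Cd3e (−0.30), Cd3g (−0.18) and Cd4 (−0.14), in Severe PE against Vehicle for Cd4 (−0.21) and Cd8b (−0.37), and between the doses for Cd3e (0.06). The cause of these changes was not tested.

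With 1 rat left out, the number changed ranged between 0 and 3 for 18-h Severe PE against Vehicle (0 without Vehicle rat 2 or rat 3, and 3 without Severe PE rat 3) and between 0 and 1 for Severe PE against Mild PE at 2 h, where over all probesets it was 980 to 1566 and 44 to 346. It ranged between 2 and 3 for time, 2 and 4 for dose, 0 and 1 for the interaction, 0 and 3 for the 3 groups at 18 h, 0 and 1 for those at 2 h, and 0 and 1 for the Severe PE effect at 18 h minus 2 h. The differences that turned ranged, in 18-h Mild PE against Vehicle, between −0.33 and 0.22 for Cd4 and between −0.28 and 0.46 for Cd8a. In 2-h Severe PE against Vehicle they ranged between −0.31 and 0.09 for Cd3d, −0.40 and 0.25 for Cd3e, −0.09 and 0.32 for Cd3g, −0.33 and 0.27 for Cd4, and −0.33 and 0.38 for Cd8b. In 2-h Mild PE against Vehicle they ranged between −0.41 and 0.06 for Cd79b, −0.08 and 0.32 for Cd3d, −0.30 and 0.35 for Cd3e, −0.18 and 0.23 for Cd3g, and −0.14 and 0.45 for Cd4. Between the doses at 2 h they ranged between −0.20 and 0.06 for Cd3e and −0.02 and 0.24 for Cd3g, and for Vehicle at 18 h against 2 h between −0.16 and 0.50 for Cd4.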
